A study of Mus musculus with 11 samples.

Results

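A set of 1066 tiles of 2 kb in the mouse genome carried little 5-hydroxymethylcytosine (5hmC) signal in wild-type embryonic stem (ES) cells and a high signal after 2 days of differentiation to epiblast-like cells (EpiLC). They are 0.0866% of the 1231381 autosomal tiles measured. A tile entered the set when its mean over the 3 TET_WT day 0 libraries was at or below -2 log2 RPKM, each of the 3 TET_WT day 2 libraries stood at or above 0, and the day 2 mean exceeded the day 0 mean by 3 or more. RPKM, the number of reads for each kilobase of a tile relative to the size of the library, is given on the log2 scale, where a step of 1 is a doubling. The deposited values lie 1.21 to 1.22 above what the reads summed over all tiles would give, in every library alike, for a reason not given in the sources used here, so levels hold on the deposited scale and differences between libraries are hardly touched. Of the autosomal tiles, 592555 met the day 0 condition, 283497 met the day 2 condition and 2610 met the condition on the difference. Because the values of those 6 libraries chose the tiles, they are given below as a description without a test. The day 1 libraries of the same line and the libraries of another wild-type line took no part in the choice.

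HMCP-seq, in which a commercial kit captures DNA fragments that carry 5hmC, had been applied to 10 ng of sonicated genomic DNA per library. The 11 libraries used here came from 2 wild-type parental lines. DNMT_WT, the parent of a Dnmt1, Dnmt3a and Dnmt3b triple knockout, was sampled as EpiLC at day 2 (n = 3). TET_WT, the parent of a Tet1, Tet2 and Tet3 triple knockout, was sampled as ES cells in 2i/Lif medium at day 0 (n = 3), as EpiLC at day 1 (n = 2, numbered 2 and 3) and as EpiLC at day 2 (n = 3). Both lines are wild type by their labels, the knockout lines and the embryoid bodies of the series were not analysed here, and DNMT_WT has no day 0 or day 1 library among these. The labels do not say whether replicates were separate cultures, so tests measure only the spread between these libraries.

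TET enzymes oxidise 5-methylcytosine to 5hmC, so the mark needs both a methylated cytosine and TET activity. In 2i/Lif medium, mouse ES cells are held in a naive state with a sparsely methylated genome. On the way to EpiLC they enter a formative state, in which the de novo methyltransferases are strongly expressed, DNA methylation spreads and naive transcription factors are switched off. The mark is known from gene bodies, enhancers and the edges of promoters.

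Libraries held 7342015 to 51604034 reads, recovered as whole numbers from the deposited values. The shallowest was TET_WT day 1 replicate 2, where an autosomal tile held a median of 2 reads and 3 reads in a tile correspond to -1.08 log2 RPKM. Day 0 replicate 2 stood apart from its group, with 30.2% of tiles without reads against 15.6% and 13.1% in day 0 replicates 1 and 3. Tiles without reads hold the value of 0.9 reads. The scaling to each library's reads hides any change in 5hmC over the whole genome, and in bulk DNA the mark in more cells and more of the mark per cell cannot be told apart.

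The name "nearly empty" held only in part. The members held a median of 6, 5 and 7 reads in day 0 replicates 1, 2 and 3, and no member lacked reads in all 3 of these libraries. In at least 1 of them, 151 members had no read. Their median day 0 level, -2.71 log2 RPKM, was at percentile 39.2 of the autosomal tiles, because 48.1% of all autosomal tiles met the same day 0 limit. The members were thus low at day 0, as a large part of the genome was. The day 2 condition alone was also common, met by 283497 autosomal tiles. Only 1496 tiles met both, so what set the members apart was the combination.

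Of the members, 104 held an annotated transcription start site, counting the 1033 members on autosomes other than 18, and 65 promoter windows of 61 protein-coding genes lay wholly inside a member. A window runs from 250 bases before to 50 bases after the start site in RefSeq's annotation of GRCm38.p6. The windows printed here are first those of the 3 protein-coding genes whose tile had the largest difference between day 2 and day 0. To them was added that of Trh, a gene of the endoderm list described below. These windows show that tiles of this kind include promoters rich and poor in CpG, the dinucleotide in which mammalian DNA is methylated. CpG stands in capitals. Calhm2 encodes a channel protein of the calcium homeostasis modulator family (minus strand, chr19:47138245-47138544, 11 CpG), and Snx18 a sorting nexin of membrane traffic (minus strand, chr13:113618515-113618814, 35 CpG). Ccdc141 encodes a coiled-coil protein (minus strand, chr2:77170586-77170885, 7 CpG), and Trh the precursor of thyrotropin-releasing hormone (minus strand, chr6:92244601-92244900, 28 CpG).
Calhm2 promoter: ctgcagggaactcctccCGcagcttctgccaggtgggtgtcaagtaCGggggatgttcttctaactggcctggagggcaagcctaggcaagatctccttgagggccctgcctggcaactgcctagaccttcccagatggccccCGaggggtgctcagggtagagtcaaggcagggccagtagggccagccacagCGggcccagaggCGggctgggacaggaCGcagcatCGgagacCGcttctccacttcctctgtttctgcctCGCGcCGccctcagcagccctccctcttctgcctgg
Snx18 promoter: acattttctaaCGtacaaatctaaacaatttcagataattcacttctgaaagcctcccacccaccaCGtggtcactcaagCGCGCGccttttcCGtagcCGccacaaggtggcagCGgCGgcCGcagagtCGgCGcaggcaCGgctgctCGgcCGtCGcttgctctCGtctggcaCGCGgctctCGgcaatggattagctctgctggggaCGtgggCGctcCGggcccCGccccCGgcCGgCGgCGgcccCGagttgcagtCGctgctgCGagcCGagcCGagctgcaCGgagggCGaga
Ccdc141 promoter: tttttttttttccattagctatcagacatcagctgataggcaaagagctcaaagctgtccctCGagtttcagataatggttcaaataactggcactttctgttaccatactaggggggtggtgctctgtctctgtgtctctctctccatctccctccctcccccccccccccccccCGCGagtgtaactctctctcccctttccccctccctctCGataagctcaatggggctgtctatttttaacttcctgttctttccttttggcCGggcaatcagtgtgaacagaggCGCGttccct
Trh promoter: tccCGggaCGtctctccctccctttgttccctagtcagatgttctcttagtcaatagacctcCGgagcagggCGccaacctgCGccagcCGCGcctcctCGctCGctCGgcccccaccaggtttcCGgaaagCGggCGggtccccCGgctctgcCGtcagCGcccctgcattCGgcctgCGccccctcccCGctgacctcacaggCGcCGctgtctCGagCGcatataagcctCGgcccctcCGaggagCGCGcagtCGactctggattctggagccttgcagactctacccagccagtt

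The tile around the Calhm2 start site held 2.63, 2.42 and 2.85 log2 RPKM in DNMT_WT day 2 replicates 1, 2 and 3. In TET_WT it held -2.3, -4.68 and -2.41 at day 0, -2.66 and -2.56 at day 1, and 2.32, 2.51 and 2.04 at day 2. Both day 1 libraries were thus still within the range of day 0, and all 6 day 2 libraries of both lines stood above 2. The Snx18 tile took an intermediate course, with 2.20, 2.58 and 2.70 in DNMT_WT, and in TET_WT -2.15, -4.68 and -3.09 at day 0, -0.66 and -0.39 at day 1, and 2.08, 1.90 and 1.78 at day 2. At Ccdc141 the 2 day 1 libraries differed from each other, at -2.66 and -0.56, and the Trh tile held -1.66 and -3.56 at day 1 against -3.89, -2.36 and -0.55 at day 0. Across the 65 protein-coding windows the median was 13 CpG, against 14 over all 20085 such autosomal windows, and 36.9% against 37.1% held 20 or more. The members' promoters were therefore neither richer nor poorer in CpG than promoters in general by these counts.

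In every TET_WT day 2 library the members lay high, as the rule required, with medians of 0.99, 1.05 and 0.93 log2 RPKM in replicates 1, 2 and 3 at day 2 against -2.89, -2.36 and -2.60 at day 0. Summed over members, members held 2008, 2117 and 1959 of every 1000000 reads (RPM) at day 2 against 158, 191 and 173 RPM at day 0, a ratio of 11.6 between the group means. As many average tiles would hold 782 RPM. The members thus held more reads than average tiles at day 2 and fewer at day 0.

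**Figure D1:**
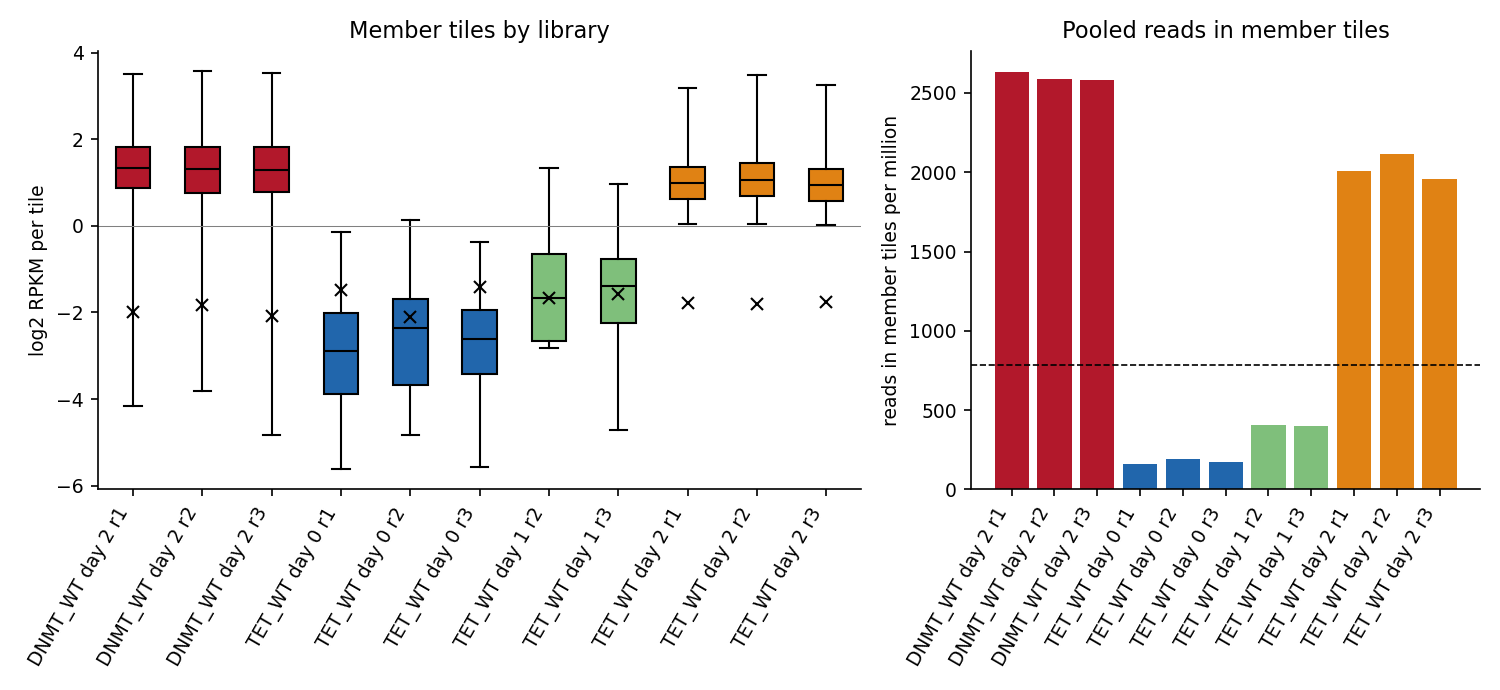
Left, log2 RPKM of the 1066 members in each of the 11 libraries (box, quartiles and median; whiskers, lowest and highest member; cross, median of all autosomal tiles); right, reads in members per 1000000 reads of the library (RPM), with a dashed line at the 782 that as many average tiles would hold. The 3 DNMT_WT libraries stand at 2583 to 2634 RPM, above all TET_WT libraries, and the day 1 libraries lie between day 0 and day 2.

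Part of the low day 0 level came with the choice itself, which the values in a left-out library show. When the tiles were chosen on day 0 replicates 2 and 3 alone, the 1146 tiles obtained had a median of -2.02 in day 0 replicate 1, against -2.76 for the mean of the libraries that chose them. Choosing without replicate 2 gave -1.88 in that replicate against -2.78, and choosing without replicate 3 gave -2.09 against -2.79. With replicates 1, 2 and 3 left out, 53.1%, 46.3% and 51.2% of tiles lay at or below -2 in the left-out library. Of autosomal tiles 42.4%, 51.8% and 40.1% did. At or above 0 lay 0.43% to 1.89% of tiles, against 26.0% to 27.9% of autosomal tiles. High tiles were thus nearly missing from the left-out day 0 library. Its share of very low tiles was above that of the autosomal tiles for replicates 1 and 3 and below it for replicate 2. In pooled reads the 3 sets held 2090, 2259 and 2250 RPM at day 2 against 289, 310 and 315 RPM in the left-out day 0 library. At day 2 the left-out libraries moved little, with medians of 0.90, 0.97 and 0.83 and 90.1% to 91.5% of tiles at or above 0.

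Day 1 lay nearer to day 0 than to day 2. The members had a median of -2.71 log2 RPKM at day 0, -1.53 at day 1 and 0.96 at day 2, and the median of the autosomal tiles was -1.84, -1.71 and -1.88 at these days. At day 1 the members thus stood at percentile 52.5 of the autosomal tiles, in the middle of the genome. Day 1 replicate 2 had a member median of -1.66 and day 1 replicate 3 of -1.39, and reads in members came to 403 and 401 RPM, 2.31 times the day 0 mean. The deeper and the shallower day 1 library gave nearly the same pooled value.

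On the linear scale 12.3% of the gain in pooled reads between day 0 and day 2 was present at day 1, and on the log2 scale the median member had made 34.9% of its rise. Both shares use day 0 values that the rule chose as low. Against a day 0 library left out of the choice, day 1 held 1.65, 1.45 and 1.64 times the pooled RPM for day 0 replicates 1, 2 and 3, which is 7.13% to 10.4% of the gain to day 2, and the medians had made 23.8%, 13.4% and 25.6% of their rise. The day 1 mean was above the day 0 mean in 981 members, and above the left-out day 0 library in 64.1% to 74.0% of the tiles chosen without it. Only 18 members (1.69%) had both day 1 libraries at or above 0, against 22.6% of autosomal tiles. In 1057 members both day 1 libraries lay below every TET_WT day 2 library, an order that the rule favoured by requiring high day 2 values. Neither this count nor that of 981 was taken over all tiles, so both are descriptions only. In the limma fit of all 11 libraries, 292 members were called higher at day 1 than at day 0 (0.601% of all 1183888 tested tiles were) and 0 lower (0.409% of all were, with 6 members lower at an unadjusted p under 0.05). In the same fit 887 were called higher at day 2 than at day 1 (2.41% of all were), at a Benjamini-Hochberg adjusted p under 0.05. Since both contrasts hold libraries that chose the tiles, nothing is read from these counts, nor from the 1066 called higher at day 2 than at day 0 (5.33% of all tiles).

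The highest day 1 levels belonged to a few tiles. A tile in Rab11fip4, which encodes an effector of the Rab11 GTPase (chr11:79642001-79644000), held 1.69, 2.11 and 1.59 log2 RPKM in DNMT_WT, and in TET_WT -3.15, -1.22 and -3.41 at day 0, 1.04 and 0.68 at day 1, and 1.85, 1.40 and 1.87 at day 2. Next came a tile 4.2 kb from Nmu (chr5:76368001-76370000), which encodes the neuropeptide neuromedin U, with 1.34 and 0.24 at day 1 against 0.36, 0.83 and 0.61 at day 2. The Rab11fip4 tile thus lay between day 0 and day 2 at day 1, while the 2 day 1 libraries of the Nmu tile, with 16 and 28 reads, lay 1 above and 1 below its 3 day 2 libraries. A tile shared by Arhgap26 and Fgf1 on chromosome 18, the gene for a fibroblast growth factor, had 0.51 and 0.96 at day 1. The other two were intergenic, at chr14:80536001-80538000 (0.92 and 0.52 at day 1) and chr4:105282001-105284000 (1.15 and -0.17), where the 1.15 rested on 14 reads.

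The DNMT_WT libraries, made from another line, largely repeated the high day 2 level. All 3 of them stood at or above 0 in 964 members (90.4%), against 21.3% of autosomal tiles. The mean was at or above 0 in 1029 members, and in 13 members none of the 3 libraries reached 0. For tiles chosen without 1 of the 6 libraries of the rule the share was 86.8% to 92.3%. Medians were 1.34, 1.30 and 1.29 log2 RPKM in DNMT_WT against 0.99, 1.05 and 0.93 in TET_WT at day 2. DNMT_WT had 2634, 2588 and 2583 RPM in members, and TET_WT at day 2 had 2008, 2117 and 1959 RPM, so that these groups did not overlap and their ratio was 1.28.

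Tile by tile, the DNMT_WT mean exceeded the TET_WT day 2 mean in 746 members (70.0%), against 40.7% of autosomal tiles, with a median difference of 0.25 against -0.13. In the fit of 11 libraries, 23 members were called higher in DNMT_WT (1.0% of all tiles were) and 4 lower (2.24% of all were). Since TET_WT day 2 chose the tiles, these counts are a description. Across the 1066 members, which share their libraries and were selected on one of these measures, the DNMT_WT mean correlated with the TET_WT day 2 mean at Pearson r = 0.66 and with the day 1 mean at r = 0.19, while DNMT_WT replicates correlated with each other at 0.83 to 0.86 and the day 1 pair at 0.31.

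The comparison open to a test set DNMT_WT day 2 against TET_WT day 1, the 5 libraries that had no part in the choice. In it, line and day differ together and cannot be told apart. All 1066 members passed the filter on tile level, and 993 of them were called higher in DNMT_WT day 2 with limma at an adjusted p under 0.05, while 5.39% of all tested tiles were called higher. In this fit of 5 libraries limma called 0 members lower, against 3.89% of all tiles, with 2 lower at an unadjusted p under 0.05. Voom on recovered reads called 1 lower, as did limma with a replicate block in all 11 libraries. The median difference was 2.80 on the log2 scale with quartiles of 2.16 and 3.59, against a median of -0.42 over all tested tiles. Every DNMT_WT library exceeded both day 1 libraries in 1038 members, where 11.9% of all tested tiles showed that order. The difference was 2 or more in 850 members, against 1.75% of all tiles.

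**Figure D2:**
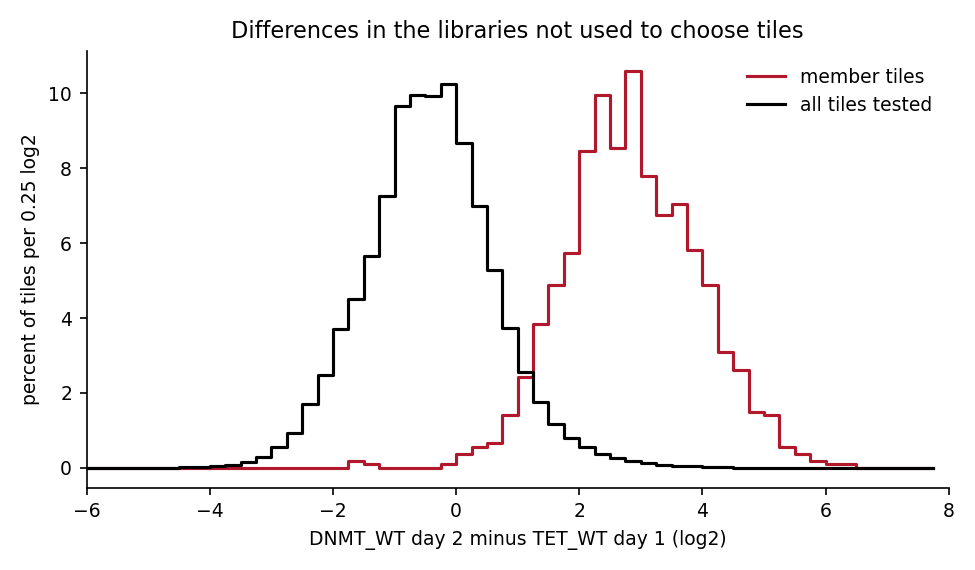
Percent of tiles (y) in bins of the difference between DNMT_WT day 2 and TET_WT day 1 means in log2 units (x), for the 1066 members (red) and for all 1183888 tested tiles (black). The members centre on 2.80 and all tiles on -0.42, and 4 members lie below 0.

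The median difference ran from 2.70 to 3.05 over the settings tried, and the calls varied far more. The fit of 5 libraries took the spread of a tile from its signal level alone (prior degrees of freedom without limit), and with no variance trend it called 0 members, with 1006 of them at an unadjusted p under 0.05, as did reads thinned to equal depth, with 936. These 2 fits called 0 of all tested tiles higher, and the unadjusted counts were not taken over all tiles. With all 11 libraries in the fit, 955 members were called higher with the trend, where 63012 of all 1183888 tested tiles were. Voom on recovered reads of the 5 libraries called 943 members and 52737 of all tiles. In 2 additions chosen after seeing the data, fits of all 11 libraries called 500 members without the trend and 585 at equal depth. Over all tested tiles they called 15758 and 13410 higher.

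The members with the largest called difference lay in or near known genes. The first was in Tbx3, a T-box transcription factor of naive pluripotency (chr5:119672001-119674000). It held 2.44, 2.71 and 2.65 log2 RPKM in DNMT_WT, and in TET_WT -4.47, -4.68 and -4.41 at day 0, -2.81 and -4.56 at day 1, and 0.61, 1.40 and 0.35 at day 2. The 2 day 1 values stood for 0 and 1 reads, while DNMT_WT held 193, 93 and 160 reads. The difference was 6.29 (SE 0.46, limma adjusted p = 2.63e-39), and over the alternatives the adjusted p ran from 1.06e-72 to 0.162.

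The second tile lay 6.1 kb from Gsx2, a homeobox gene of the developing forebrain (chr5:75084001-75086000). DNMT_WT held 2.99, 2.93 and 2.84 there, and TET_WT held -1.66 and -4.56 at day 1 and 0.16, 0.27 and 1.17 at day 2. Its DNMT_WT mean exceeded its TET_WT day 2 mean by 2.39. The other three lay in Tnks, which encodes the poly-ADP-ribosylating enzyme tankyrase (chr8:34922001-34924000, difference 5.96), Zfp57, which encodes a zinc finger protein that guards imprints (chr17:37008001-37010000, 5.85), and Plekhf2, a phosphoinositide-binding protein of endosomes (chr4:10996001-10998000, 5.73). In each of these 5 tiles at least 1 day 1 library held 0 or 1 reads. The Tbx3, Zfp57 and Plekhf2 tiles had a day 1 library with no read, so their differences also rest on the 0.9 reads that stand for none, while the Gsx2 tile held 2 and 1 reads and the Tnks tile 1 and 1.

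The members without a call numbered 73, with differences between -1.75 and 1.97. Those with the lowest DNMT_WT level went against the rest. A tile 4.0 kb from Mrps24 (chr11:5698001-5700000) held 2, 1 and 0 reads in DNMT_WT, at -4.16, -3.83 and -4.83 log2 RPKM, against 54, 38 and 40 reads in TET_WT at day 2, at 1.16, 1.13 and 0.76. Its TET_WT day 0 libraries held -3.89, -2.68 and -2.09. The DNMT_WT mean was therefore below the TET_WT day 0 mean, though DNMT_WT replicate 2 lay just above day 0 replicate 1. A tile in Ano2, a calcium-activated chloride channel gene (chr6:125998001-126000000), held -1.57, -2.24 and -2.67 in DNMT_WT against 0.31, 0.46 and 0.14 in TET_WT at day 2. These were the 2 members with a DNMT_WT mean at or below -2, and their DNMT_WT means differed from their TET_WT day 2 means by -5.28 and -2.47. Tiles in Rdm1 (mean -1.16), 21.1 kb from Actr2 (-0.85) and in Snd1 (-0.72) followed in DNMT_WT.

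At the upper end, a tile in Macroh2a1, which encodes a macroH2A histone variant (chr13:56112001-56114000), reached 3.50, 3.44 and 3.54 in DNMT_WT, and in TET_WT -2.89, -1.51 and -3.09 at day 0, 0.34 and -0.04 at day 1 and 3.19, 3.48 and 3.26 at day 2. Both lines thus came to the same level there. In Camkmt, a calmodulin-lysine methyltransferase gene (chr17:85164001-85166000), DNMT_WT held 3.32, 3.58 and 3.52 against 2.54, 2.89 and 2.44 in TET_WT at day 2. In Sgk1, which encodes a glucocorticoid-induced kinase (chr10:21998001-22000000), it held 3.39, 3.45 and 3.36 against 2.05, 2.27 and 2.3. The DNMT_WT mean of the Sgk1 tile was higher by 1.19. The intergenic tile chr14:61684001-61686000 and a tile in Zbtb7a, a zinc finger repressor gene (chr10:81142001-81144000), had DNMT_WT means of 3.34 and 3.29.

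The largest difference between day 2 and day 0 rested on day 0 libraries with almost no reads. The tile chr6:128460001-128462000, in the annotated gene Gm10069, held 62, 44 and 84 reads in TET_WT at day 2 against 1, 1 and 1 at day 0, a difference of 6.70. It held 1.96, 1.57 and 1.37 log2 RPKM in DNMT_WT. Tiles in Pfdn1, a prefoldin subunit gene (6.37), 27.2 kb from Med27 (6.37), in Cd9, a tetraspanin gene (6.30), and in Klf4 (6.19) came next. They were followed by tiles 34.2 kb from Sik1 (6.18), in Tbx3 (6.18), in Ubxn2a (6.02), 12.6 kb from Nufip1 (5.94) and in Macroh2a1 (5.81). The Macroh2a1 tile, described above, was not of this kind, since its day 0 level was near that of the members at large and its day 2 level was very high. In each of these 10 tiles the 3 DNMT_WT libraries stood above 0.

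At each limit of the rule, the 2 nearest members and the 2 nearest non-members were close in the limited value by construction. The members closest to the day 0 limit had day 0 means of -2.001 and -2.003, and the tiles just outside it -1.997 each, with DNMT_WT means of 0.89 and 2.26 inside and 2.43 and 2.06 outside. For the difference, the nearest members stood at 3.003 and 3.007 and the nearest non-members at 2.997 each. Their DNMT_WT means were 0.27 and 1.51 inside and 0.67 and 0.87 outside. For the lowest day 2 library, the nearest members stood at 0.03 and the nearest non-members at -0.01. There the DNMT_WT means were 0.21 and -0.40 inside and 0.83 and 0.07 outside.

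At day 0 the members lay below the tiles beside them, as the rule favoured by requiring a low member, and the neighbours shown are non-members. In the non-member tiles 2 kb below and above a member, the mean level was -0.84 and -0.89 log2 RPKM at day 0, -0.61 and -0.62 at day 1, and 0.34 and 0.40 at day 2, with 0.52 and 0.59 in DNMT_WT. At 20 kb it was 0.11 and 0.18 at day 0, 0.16 and 0.22 at day 1, and 0.38 and 0.44 at day 2, with 0.47 and 0.55 in DNMT_WT. The neighbours therefore changed in the same direction but far less, and the surroundings at 20 kb were well above the autosomal median at day 0 already. At day 2 the members had a mean of 1.30 in DNMT_WT, above their neighbours, and of 1.03 in TET_WT, where the rule itself required a high member and the neighbours shown are non-members.

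**Figure D3:**
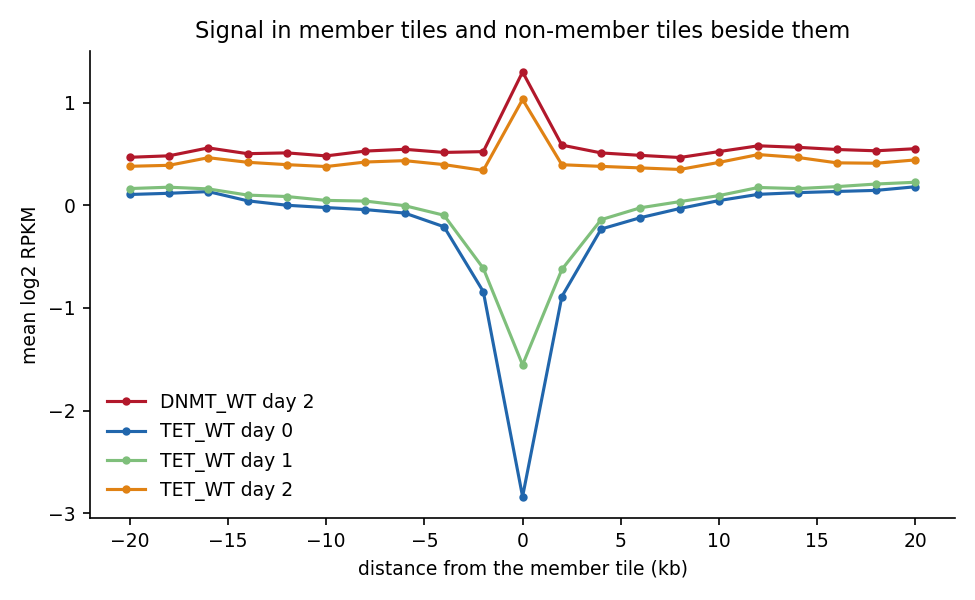
Mean log2 RPKM (y) of members (distance 0) and of non-member tiles up to 20 kb on either side (x, kb), by group. The day 0 line falls to -2.84 at the member from 0.11 and 0.18 at the edges, the day 1 line falls to -1.55, and both day 2 lines rise to 1.03 (TET_WT) and 1.30 (DNMT_WT).

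Runs of low tiles at day 0 were short for most members. Among tiles at or below -2 at day 0, a member stood alone, with higher tiles on both sides, in 520 cases (48.8%), against 7.94% of all low autosomal tiles. Runs of 3 or more low tiles held 26.0% of members against 85.0% of all low autosomal tiles. The median run was 2 tiles for members and 12 for all low tiles, and the longest run with a member had 32. These are day 0 values, which the rule used for the members. A tile beside a member took no part in the choice of that member, but 218 members had another member in an adjacent tile, itself chosen as low.

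Many members lay near another one. Where 0.0866% of autosomal tiles are members, 218 members (20.5%) had another in an adjacent tile, 31.7% had one within 10 kb and 53.3% within 100 kb, while the median gap between neighbouring members was 534 kb. Joining members whose starts lay at most 10 kb apart gave 874 clusters, of which 728 were single tiles and 25 held 3 or more members, 96 in all. By chromosome, density was highest on chromosome 11 with 1.65 members per 1000 tiles, followed by chromosome 4 with 1.48 and chromosome 17 with 1.26, and lowest on chromosome 16 with 0.509, against 0.866 over all autosomes.

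The largest cluster, 10 members over 36 kb, lay inside Esrrb, which encodes an orphan nuclear receptor of the naive network (chr12:86472001-86508000). Its mean level was 1.54, 1.45 and 1.45 log2 RPKM in DNMT_WT, and in TET_WT -3.25, -2.13 and -3.27 at day 0, -2.19 and -2.03 at day 1, and 1.15, 1.12 and 0.89 at day 2. Over the cluster, day 1 replicate 2 thus lay within the range of the day 0 libraries and day 1 replicate 3 just above it, and single tiles varied. One of its tiles (chr12:86482001-86484000) reached 3.09, 3.11 and 3.0 in DNMT_WT and 2.51, 2.49 and 2.00 in TET_WT at day 2, against -2.66 and -1.98 at day 1. The tile chr12:86494001-86496000 was further on at day 1, at -0.66 and 0.19.

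The next cluster, 9 members over 26 kb (chr17:29054001-29080000), covered Trp53cor1, the long non-coding RNA known as lincRNA-p21, beside the cell cycle inhibitor gene Cdkn1a. It held 1.77, 1.70 and 1.94 in DNMT_WT, and in TET_WT -3.39, -2.50 and -2.67 at day 0, -0.64 and -1.25 at day 1, and 1.41, 1.59 and 1.48 at day 2. Here day 1 lay above all day 0 libraries. The Tbx3 cluster of 5 members (chr5:119664001-119686000) held 2.12, 2.07 and 2.16 in DNMT_WT, and in TET_WT -3.59, -3.80 and -3.41 at day 0, -1.36 and -2.35 at day 1, and 1.05, 1.27 and 0.92 at day 2. Its DNMT_WT level was above the TET_WT day 2 level in every library. A cluster of 5 members outside annotated genes (chr12:86910001-86920000) stood at 1.67, 1.35 and 1.53 in DNMT_WT and 1.32, 1.51 and 1.26 in TET_WT at day 2.

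**Figure D4:**
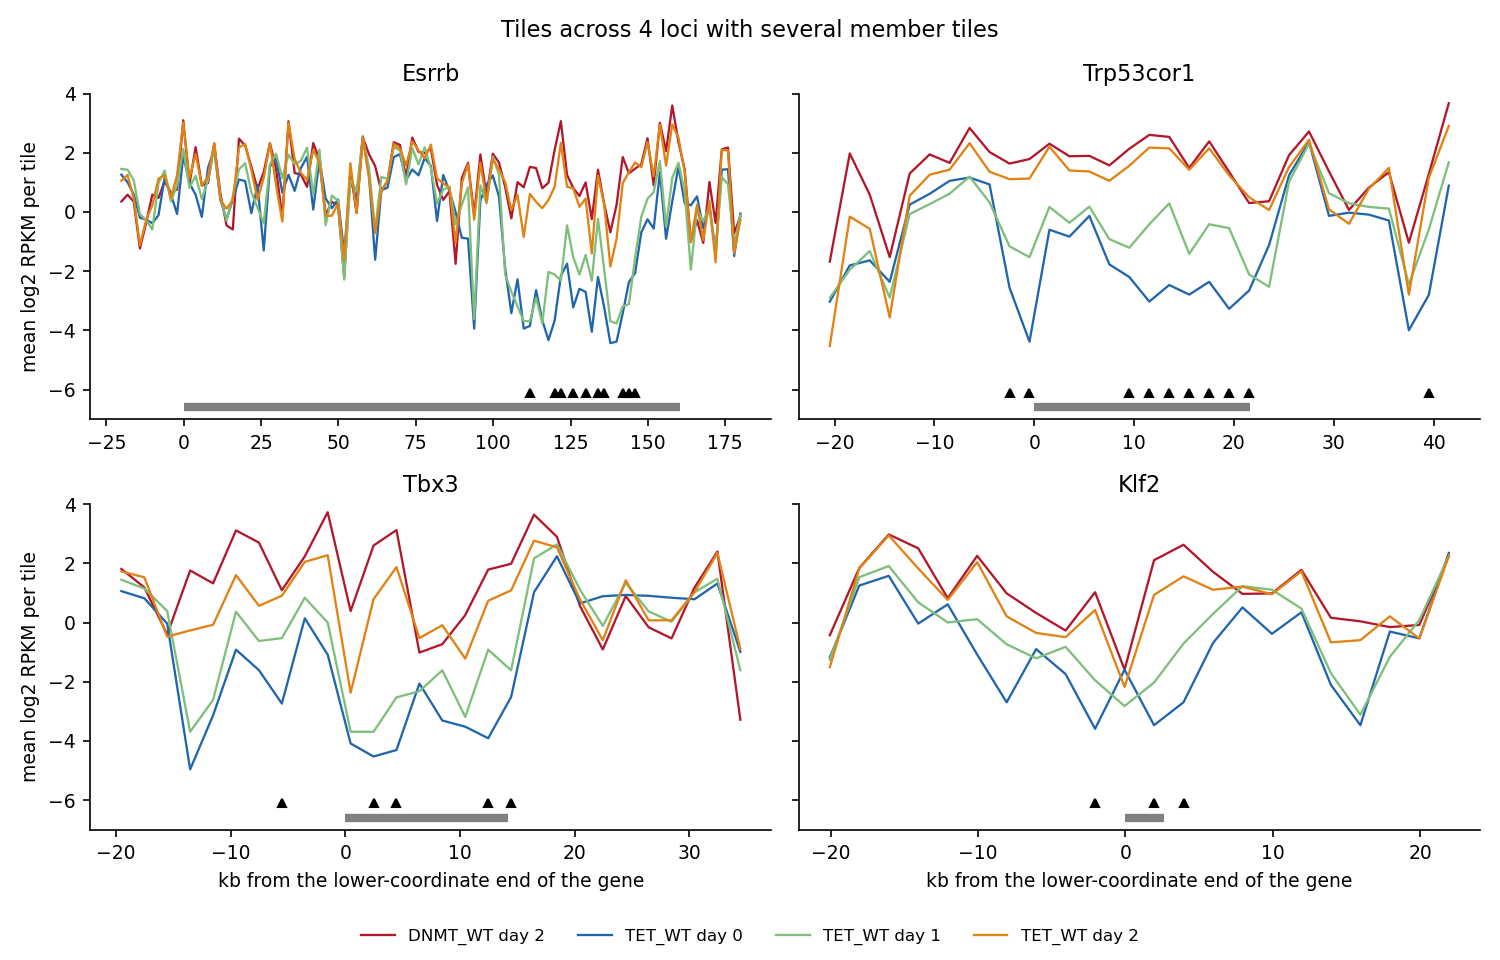
Mean log2 RPKM of each 2 kb tile (y) along 4 loci (x, kb from the end of the gene with the lower coordinate), by group; grey bars mark the gene and triangles the members. In Esrrb the day 0 and day 1 lines lie well below both day 2 lines over the stretch that holds the 10 members.

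Clusters of 4 members lay in C77080, in Snx18, at the long non-coding genes Dleu2 and Gm35196 and in Camkmt. DNMT_WT means in them were 1.35, 2.09, 2.47 and 2.09, TET_WT day 2 means 0.93, 1.17, 1.79 and 1.44, and day 1 means -1.56, -1.69, -0.69 and -2.48, in that order. The first clusters of 3 in genome order lay at Prdm14, a regulator that represses de novo methyltransferases in naive cells, and in Tfcp2l1, a transcription factor of the naive network. The Prdm14 cluster (chr1:13124001-13130000) held 2.18, 2.42 and 2.36 in DNMT_WT against 1.37, 1.24 and 0.93 in TET_WT at day 2. The Tfcp2l1 cluster (chr1:118632001-118652000) went the other way, with 0.63, 0.86 and 0.48 in DNMT_WT against 0.88, 1.42 and 0.97 in TET_WT at day 2.

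Members lay in genes more often than tiles at large. A protein-coding gene was overlapped by 618 of them (58.0%), against 41.3% of autosomal tiles, another annotated gene alone by 126 (11.8%, against 9.37%), and 322 lay outside annotated genes (30.2%, against 49.3%). Start sites were held by 10.1% of members against 2.24% of tiles. The median distance to a start site was 12.8 kb for members and 45.5 kb for tiles, and 45.0% of members against 18.5% of tiles had one within 10 kb. The class of a tile made little difference to its levels: tiles outside genes, in protein-coding genes and at start sites had median differences between DNMT_WT day 2 and TET_WT day 1 of 2.76, 2.83 and 3.03.

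A member fell in or within 2 kb of 579 of the 20665 autosomal protein-coding genes (2.80%). Overlapping genes count separately here, so that 1 tile on chromosome 18 counts for each of many overlapping protocadherin genes. Esrrb had the most, 10, followed by Aff1, a gene of the transcription elongation machinery, with 7, and by Rnf220, a ubiquitin ligase gene, and Fryl with 5 each. C77080, Camkmt, Gcnt2, Mras, Msi2, Snx18 and Tbx3 had 4 each, and 463 genes had 1. Tbx3 is the shortest of these genes at 14.2 kb, and Msi2, which encodes an RNA-binding protein, the longest at 379 kb.

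Naive pluripotency was the gene list with the highest share of genes with a member: 14 of its 32 autosomal genes (43.8%) had at least 1, against 2.80% of all. The lists were chosen with earlier results of these data known, so the count is a description. The 14 were Tbx3, Klf2, Klf4, Nanog, Esrrb, Tfcp2l1, Prdm14, Tdh, Nr5a2, Fgf4, Pecam1, Zfp57, Dppa2 and Socs3, with 33 tiles. Of these tiles 32 were called higher in DNMT_WT day 2 than in TET_WT day 1, where 93.2% of all members and 5.39% of all tested tiles were, and their median difference was 3.28. In 31 of the 33 all 3 DNMT_WT libraries stood at or above 0, where 90.4% of all members did. Both counts are near the shares over all members. The tile without a call was in Tfcp2l1 (chr1:118642001-118644000), at 0.05, 0.42 and -0.50 in DNMT_WT against -1.66 and -1.24 at day 1 (difference 1.44, limma adjusted p = 0.102).

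Among the transcription factors, the second Tbx3 tile (chr5:119674001-119676000) held 3.32, 2.82 and 3.23 in DNMT_WT, and in TET_WT -2.67, -4.84 and -5.41 at day 0, -2.81 and -2.24 at day 1, and 1.86, 2.14 and 1.61 at day 2. Klf2 and Klf4 encode Krüppel-like factors that hold the naive state. At Klf2 the tile chr8:72322001-72324000, 0.3 kb beyond the gene, held 2.75, 2.46 and 2.68 in DNMT_WT, and in TET_WT -1.57, -3.68 and -2.83 at day 0, -0.66 and -0.76 at day 1, and 1.73, 1.61 and 1.35 at day 2. The Klf4 tile (chr4:55528001-55530000) held 1.66, 1.34 and 1.0 in DNMT_WT, and in TET_WT only 0, 1 and 0 reads at day 0 and 0 and 1 reads at day 1, against 48, 39 and 34 reads at day 2. The other two Klf2 members had day 1 means of -1.95 and -2.03, and at Klf4 the depth of day 1 does not allow a reading beyond these counts.

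Nanog, the homeobox factor of pluripotency, had 2 members. The one in the gene (chr6:122710001-122712000) held 1.63, 1.38 and 1.80 in DNMT_WT, and in TET_WT -2.89, -1.22 and -3.41 at day 0, -0.34 and -1.24 at day 1, and 1.31, 1.24 and 0.44 at day 2. The other, 1.5 kb away (chr6:122704001-122706000), held 1.27, 1.08 and 1.33 in DNMT_WT against 1.61, 1.94 and 1.69 in TET_WT at day 2, and so was lower in DNMT_WT in every library. A tile in Nr5a2, a nuclear receptor gene (chr1:136950001-136952000), held 1.32, 1.08 and 1.67 in DNMT_WT against 0.31, 0.46 and 0.49 in TET_WT at day 2, and was higher in DNMT_WT in every library.

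Signalling and surface genes of the list had 1 tile each. At Fgf4, the growth factor that drives ES cells out of the naive state, the tile 1.4 kb from the gene held 0.70, -1.02 and -0.15 in DNMT_WT against 1.1, 0.63 and 0.61 in TET_WT at day 2 and -2.66 and -1.56 at day 1. This was the other naive tile where not all DNMT_WT libraries reached 0, and its difference from day 1 was 1.96 (limma adjusted p = 0.0363). At Socs3, a feedback inhibitor of LIF signalling, the tile 0.1 kb from the gene held 1.18, 1.26 and 0.61 in DNMT_WT against 0.90, 1.27 and 0.69 in TET_WT at day 2. Pecam1, an adhesion molecule of naive cells, had the highest level of these, with 2.36, 2.63 and 2.58 in DNMT_WT against 2.09, 1.78 and 2.06 in TET_WT at day 2 and -0.34 and -1.76 at day 1. In Tdh, the threonine dehydrogenase gene, DNMT_WT held 0.52, 0.34 and 1.0 against 1.24, 1.01 and 1.17 in TET_WT at day 2. At Dppa2, 0.3 kb from the gene, the DNMT_WT mean was 1.03 and the TET_WT day 2 mean 1.13.

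**Figure D5:**
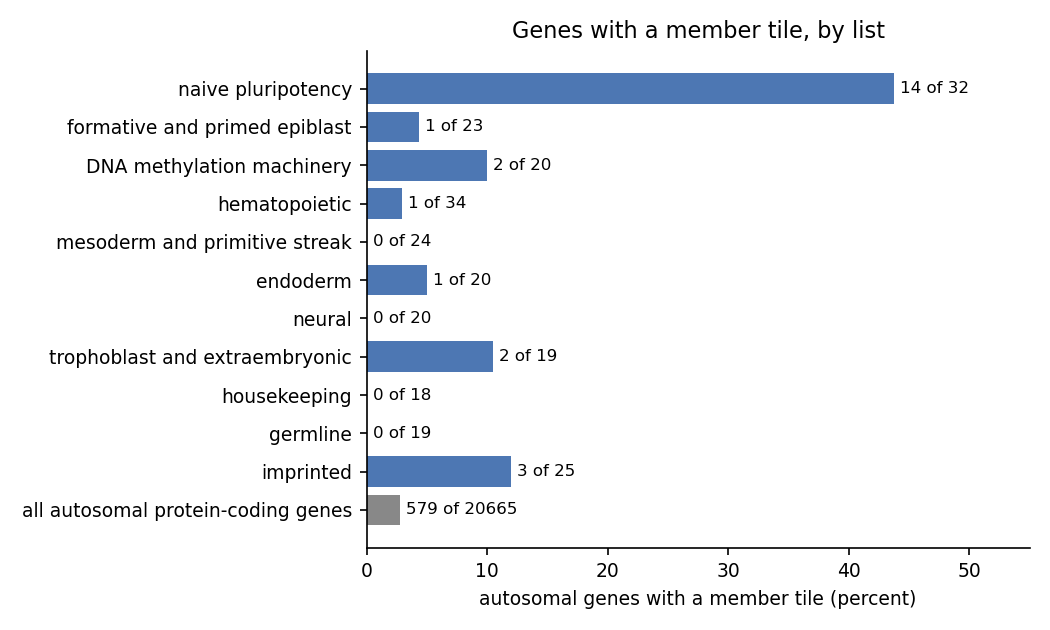
Percent of the autosomal genes of each list (x) with at least 1 member in the gene or within 2 kb of it; the numbers are genes with a member of genes in the list, and the grey bar is all autosomal protein-coding genes. Naive pluripotency stands at 14 of 32, and no other list exceeds 3 genes.

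The other 10 lists held few members. Of formative and primed epiblast genes 1 of 23 had one, Etv5, an ETS-family factor, at 0.49, 0.98 and 1.18 in DNMT_WT and 0.61, 0.20 and 0.14 in TET_WT at day 2. Of the DNA methylation machinery 2 of 20 had one, Zfp57 and Gadd45b, a stress-response gene linked to demethylation. Imprinted genes with a member were Plagl1, a zinc finger factor, with 2 tiles, Grb10, a growth factor receptor adaptor, and Kcnq1, a potassium channel gene, 3 of 25. In the Kcnq1 tile (chr7:143120001-143122000) DNMT_WT held 0.27, -0.02 and -0.21. Trophoblast genes with a member were Tfap2a, a transcription factor of the AP-2 family, and Tead4, a transcription factor that specifies trophectoderm, 2 of 19. Kit, the stem cell factor receptor, was the 1 of 34 hematopoietic genes, and Trh the 1 of 20 endoderm genes. No gene of the mesoderm and primitive streak list (24 genes), the neural list (20), the housekeeping list (18) or the germline list (19) had a member. Nanos3, a germ cell gene outside that last list, had 2 members in or within 2 kb of it.

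A pair of microRNA genes, Mir181c and Mir181d, lay together in 1 member (chr8:84178001-84180000, 1.4 kb from Nanos3, a germ cell gene). Their mature 5p sequences, as RefSeq gives them, are shown because they share the same seed, bases 2 to 8, which stands in capitals.
mmu-miR-181c-5p: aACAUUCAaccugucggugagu
mmu-miR-181d-5p: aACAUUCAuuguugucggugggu

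This tile held 1.76, 1.63 and 1.30 log2 RPKM in DNMT_WT, and in TET_WT -2.47, -1.68 and -2.41 at day 0, -2.81 and -1.24 at day 1, and 0.86, 1.37 and 0.65 at day 2. The difference between DNMT_WT day 2 and TET_WT day 1 was 3.59 (SE 0.45).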

How the data were processed

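HMCP-seq signal in 1362779 tiles of 2 kb was deposited by the authors as log2 RPKM, 1 column per library. Per the submitters' processing notes, Bowtie2 2.4.1 and the build GRCm38 were used, with trimming by cutadapt 2.3 and Trim Galore 0.6.5. How reads were assigned to tiles is not given in the sources used here. Whole reads were recovered within 0.1% from 100% of the values, with tiles without reads at 0.9 reads.

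The members, the gene lists and the tests were chosen with earlier results of these data known. The deposited log2 values of chromosomes 1 to 19 and X were fitted with limma 3.58.1 (lmFit, eBayes with a variance trend) in R 4.3.3. Tiles in the bottom 10% and the top 0.1% by mean level were removed first, and 1183888 were tested. P-values are two-sided with Benjamini-Hochberg adjustment over these tiles, and a call is an adjusted p under 0.05. Thinned reads were drawn to 7342015 per library. The script was tested on simulated data. Gene spans, start sites and sequences came from RefSeq's GRCm38.p6 tables, which give spans without strand, and promoter windows on chromosome 18 were not used here. Reads are not unique molecules, so counts carry at least counting error.

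Tiles named are the 10 members with the largest difference between day 2 and day 0, the 5 with the highest and the 5 with the lowest DNMT_WT mean, the 5 with the highest day 1 mean, the 5 largest called differences, the 10 largest clusters, listed genes, and the 10 genes with most members with ties at the last place. The promoter and microRNA tiles were added after their values were seen. Alternatives were other libraries in the fit, a block for the replicate number, other filters, median centring, equal depth, no variance trend, voom, and leaving out each library. Python 3.11.15 with numpy 2.4.6, pandas 2.3.3, scipy 1.17.1 and matplotlib 3.10.9 was used.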

Additional observations from a re-analysis of the deposited data

Results flagged for a closer look

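Outside the autosomes, 13 tiles of the X chromosome met the same thresholds, 0.152 per 1000 X tiles against 0.866 per 1000 autosomal tiles. They stand here because the X chromosome is not part of the comparisons above. Their median was 1.14 log2 RPKM in DNMT_WT, and in TET_WT -3.03 at day 0, -1.53 at day 1 and 0.53 at day 2. In 11 of the 13 tiles all 3 DNMT_WT libraries stood at or above 0. Whether the number of X chromosomes differs between the lines was not tested.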

How the results depend on the processing

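The count of 993 members called higher in DNMT_WT day 2 than in TET_WT day 1 was 912 to 947 when a DNMT_WT library was left out. It was 932 with a replicate block and 945 with the block in a fit of all 11 libraries. Over all tested tiles these fits called 42942 to 48957, 43409 and 59866 higher, in that order. Leaving out a day 1 library leaves 1 in that group, and the median difference was then 2.74 without replicate 2 and 2.84 without replicate 3. The count of members called higher was 0 with no variance trend and 0 at equal depth. In fits of all 11 libraries, chosen after seeing the data, it was 500 with no variance trend and 585 at equal depth. Those fits called 15758 and 13410 of all tested tiles higher. Only numbers 2 and 3 were shared by the groups compared, whose deviations from the group means correlated at 0.1045 and 0.01026. With 2 day 1 libraries their deviations mirror each other, so this check cannot settle whether equal numbers stand for paired samples. The median difference was 2.80, and 3.05 after median centring, which moved the median over all tested tiles to -0.17 from -0.42 and the calls over all tiles to 84197 higher and 19162 lower from 63840 and 46096. With all 11 libraries in the fit they were 63012 higher and 65170 lower, and with voom 52737 and 79870. The 5 tiles with the largest called difference lost their call with no variance trend and at equal depth, where the adjusted p was 0.0516 to 0.162, and kept it under the other alternatives.

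The rule gave 1146 to 1219 tiles when a library was left out, 340 with the day 0 limit at -3, 349 with a day 2 minimum of 1 and 376 with a difference of 4 or more. At equal depth it gave 967, of which 542 were members (50.8% of the members and 56.0% of the new set). The share with all DNMT_WT libraries at or above 0 was 86.8% to 93.2% with a library left out (leaving out a DNMT_WT library can only keep or raise it), 83.0% at equal depth and 93.6% after median centring. The share in protein-coding genes was 63.1% with genes extended by 2 kb and 82.2% by 20 kb. The share with another member nearby was 17.9% to 21.9% for an adjacent tile with a library left out, 31.7% within 10 kb and 53.3% within 100 kb. Depth limits single tiles most in TET_WT day 1 replicate 2.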
